A study of Mus musculus with 12 samples.

Results

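Endothelial cells line the blood and lymphatic vessels of the thymus. The genes described here are 33 endothelial genes listed by symbol, and 32 of them had at least 1 probe set that the platform's gene table assigned to that gene alone, out of 18193 genes measured in this way. Each gene was read from 1 probe set, the one with the highest mean over all 12 arrays, with no filter on low values. The one gene without such a probe set was Ly6c1, whose only probe set is shared with Ly6c2.

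Total RNA from whole mouse thymus was hybridised to 12 one-colour Affymetrix arrays, 3 biological replicates per genotype, from mice aged 7 to 8 weeks. The genotypes were XXsry males, XX females, XY-sry males and XY- females. The labels give the sex chromosome complement and the sex of each mouse, and in the mouse Sry is the gene that starts testis development. Mice labelled sry were male and the others female, so Sry and the sex of the animal cannot be told apart. The strain, the promoter that drives Sry and the meaning of the minus sign in XY- are not stated in the labels.

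The labels were checked first. The probe set for Sry read 6.74 to 7.20 on the 6 male arrays and 5.23 to 5.65 on the 6 female arrays. Xist, made from the inactive X, read 11.10 to 11.63 on the arrays of XXsry and XX mice and 3.41 to 4.19 on those of XY-sry and XY- mice. The Y-linked genes Eif2s3y, Kdm5d and Uty read 1.77 to 3.22 in XXsry and XX mice, which lack a Y, and 4.74 to 8.17 in XY-sry and XY- mice. Array medians lay between 4.02 and 4.10, and XY- replicate 2 had both the highest median and the lowest actin 3' minus 5' difference, a measure of RNA integrity (0.51, against 0.66 to 0.83 on the other 11 arrays).

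Blood vessel endothelium is held together by VE-cadherin and claudin junctions, is kept alive and patterned by vascular endothelial growth factors and angiopoietins acting on receptor tyrosine kinases, and owes its identity largely to ETS and SOX transcription factors. In the thymus, progenitors from the bone marrow enter across this layer, using P-selectin on the vessel wall, and mature T cells leave through vessels near the medulla. Endothelium is a small part of the thymus, which consists mostly of thymocytes.

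The values are log2 intensities, and a level depends on the probe set as well as on the RNA, so genes were compared between groups and not with each other. Of the 32 genes, 11 had a mean log2 value of at least 5 and 21 lay under it. The means of Lyve1 (2.48), Tal1 (2.80), Rasip1 (3.08) and Sox7 (3.18) lay no higher than the top reading of the Y-linked genes in mice without a Y (3.22). Of the 8 genes taken as defining for endothelium, Pecam1 (7.38), Esam (5.63), Egfl7 (5.47) and Kdr (5.05) had means of at least 5, and Cldn5 (4.69), Cdh5 (3.71), Tie1 (3.35) and Tek (3.22) did not. The median SD between replicates of a group was 0.144 for the 32 genes and 0.116 for all 45037 probe sets tested.

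Of the 32 genes, 3 were called higher in males carrying Sry than in females, averaged over the XX and XY- complements, and 0 were called lower. Ptprb, the endothelial tyrosine phosphatase that acts on the angiopoietin receptor and on VE-cadherin junctions, rose by a log2 difference of 0.44 ± 0.080 (standard error, 6 arrays on each side), or 1.36-fold, with a limma adjusted p of 0.00709. Vwf, the clotting glycoprotein stored in endothelial granules and platelets, rose by 0.35 ± 0.086 (1.27-fold, limma adjusted p = 0.0384). Aqp1, the water channel of capillary endothelium and red cells, rose by 0.35 ± 0.084 (1.27-fold, limma adjusted p = 0.0354). Among all probe sets 2.83% were called, 1.48% higher in males and 1.35% lower. The called share differed with level: 5.58% of probe sets with a mean of at least 5 passed in either direction, against 2 of 11 endothelial genes there, and 1.01% of those under 5 passed, against 1 of 21. Since RNA came from whole thymus, more cells of a type and more RNA per cell cannot be told apart.

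Ptprb lies on chromosome 10 (GRCm38.p6, 116275502 to 116389538). It read 5.32, 5.18 and 5.21 in XXsry thymus, against 4.74, 4.81 and 4.88 in XX thymus. It read 5.34, 5.05 and 5.58 in XY-sry thymus, against 4.86, 4.87 and 4.89 in XY- thymus. All 6 male arrays lay above all 6 female arrays, a separation in that direction that 1.15% of all probe sets showed. The XY- values were tightly grouped, and XY-sry replicate 3 was the highest of the 12.

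Vwf lies on chromosome 6 (125552948 to 125686679). It read 4.86, 4.67 and 4.86 in XXsry thymus, against 4.63, 4.36 and 4.64 in XX thymus. It read 5.05, 5.03 and 5.23 in XY-sry thymus, against 4.75, 4.41 and 4.82 in XY- thymus. Within each complement the males lay above the females without overlap, but XXsry replicate 2 lay below the 2 highest XY- arrays, so the sexes overlapped when pooled. XY- replicate 2, the array with the lowest actin difference, gave the lowest XY- value, and without it the difference was 0.29 (limma adjusted p = 0.0438).

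Aqp1 lies on chromosome 6 as well (55336299 to 55348555). It read 7.53, 7.18 and 7.21 in XXsry thymus, against 7.09, 6.95 and 6.91 in XX thymus. It read 7.38, 7.16 and 7.68 in XY-sry thymus, against 6.90, 7.06 and 7.15 in XY- thymus. All male arrays again lay above all female arrays, by a margin of 0.01 at the closest point. Ptprb and Aqp1 were the 2 genes separated in this way, and 0 genes had all male arrays below all female arrays, as 0.693% of all probe sets did.

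**Figure D1:**
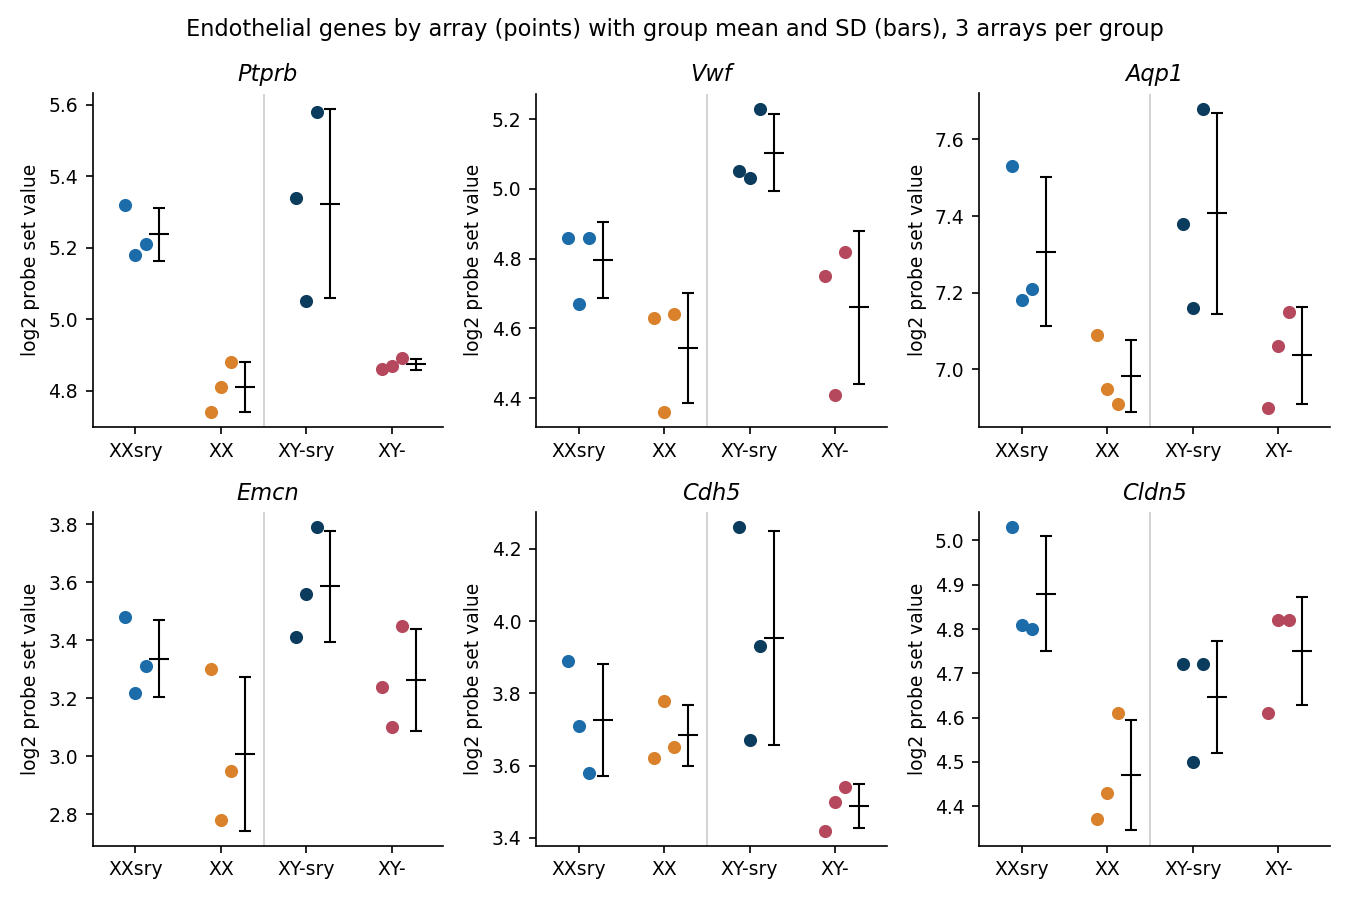
Log2 probe set values of 6 endothelial genes on each array (points; vertical axis) in XXsry, XX, XY-sry and XY- thymus (horizontal axis), with bars for the group mean and SD (3 arrays each). Ptprb and Aqp1 are higher on every male array than on any female array, while Cldn5 is higher in XXsry than in XX and overlaps between XY-sry and XY-.

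Ptprb alone of the 3 passed whichever array was left out, with a limma adjusted p of at most 0.0253. It was the only gene called without XX replicate 2 or 3, XXsry replicate 1 or 3, XY- replicate 1, or XY-sry replicate 1 or 3. Without XX replicate 1 the genes called were Emcn and Ptprb. When the actin measure entered the fit as a covariate, Ptprb passed (0.40, limma adjusted p = 0.0412), while Vwf (0.20, adjusted p = 0.303) and Aqp1 (0.34, adjusted p = 0.103) did not. The actin measure was 0.71 to 0.83 on male arrays and 0.51 to 0.77 on female arrays. Of all 45037 probe sets, 1273 were called in the main fit and 1168 with the actin covariate. With 1 array left out the number ran from 621 to 2039.

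Platelets also make Vwf, and red cells also carry Aqp1. None of 6 platelet and megakaryocyte markers passed between the sexes (limma, with 0 also at an unadjusted p under 0.05). Of all probe sets, 15.9% had an unadjusted p under 0.05. The differences were 0.22 for Pf4, 0.12 for Gp5, 0.02 for Itga2b, -0.01 for Gp1bb, -0.02 for Ppbp and -0.04 for Gp9, and the mean log2 value over the list ran from 4.05 to 4.27 on male arrays and from 4.07 to 4.16 on female arrays. Of 3 measured red cell markers none passed either (limma, 0 at an unadjusted p under 0.05; Alas2 0.67, Slc4a1 -0.04), and the list mean ran from 2.76 to 3.97 on male arrays and from 2.86 to 2.96 on female arrays. The red cell enzyme gene Alas2 read 6.09 on XY-sry replicate 2 and 3.10 to 3.75 on the other 11 arrays, and Aqp1 on XY-sry replicate 2 (7.16) was the lowest male value. Of 6 fibroblast genes, 3 rose in males (Dcn 0.40, Lum 0.48 and Pdgfra 0.42, limma adjusted p = 0.002, 0.0133 and 0.0266), where 1.48% of all probe sets were called higher. The other 3, the collagen genes Col3a1 (-0.24), Col1a2 (-0.06) and Col1a1 (-0.05), lay below zero and did not pass. The median over the 6 was 0.18, with a list mean of 6.49 to 6.70 on male arrays and 6.31 to 6.62 on female arrays. Whether these cells took part in the endothelial differences was not tested.

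Across the 32 genes, 27 differences lay above zero and 5 below, with a median of 0.085, while 52% of all probe sets lay above zero with a median of 0.005. At an unadjusted p under 0.05, 8 genes were higher and 0 lower, where 15.9% of all probe sets passed, 8.71% higher and 7.18% lower. The mean log2 value over the 32 genes was 4.77 ± 0.055 on male arrays and 4.64 ± 0.027 on female arrays (SD, 6 arrays each). By group it was 4.72 to 4.78 in XXsry, against 4.62 to 4.65 in XX, and 4.70 to 4.85 in XY-sry, against 4.62 to 4.69 in XY-. No test was made of this mean, since it only describes the chosen genes. XY-sry replicate 3 held the highest of the 12 values for 11 of the 32 genes, and XY- replicate 2 for 6. XX replicates 1 and 2 held the lowest value for 6 and 8 genes.

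**Figure D2:**
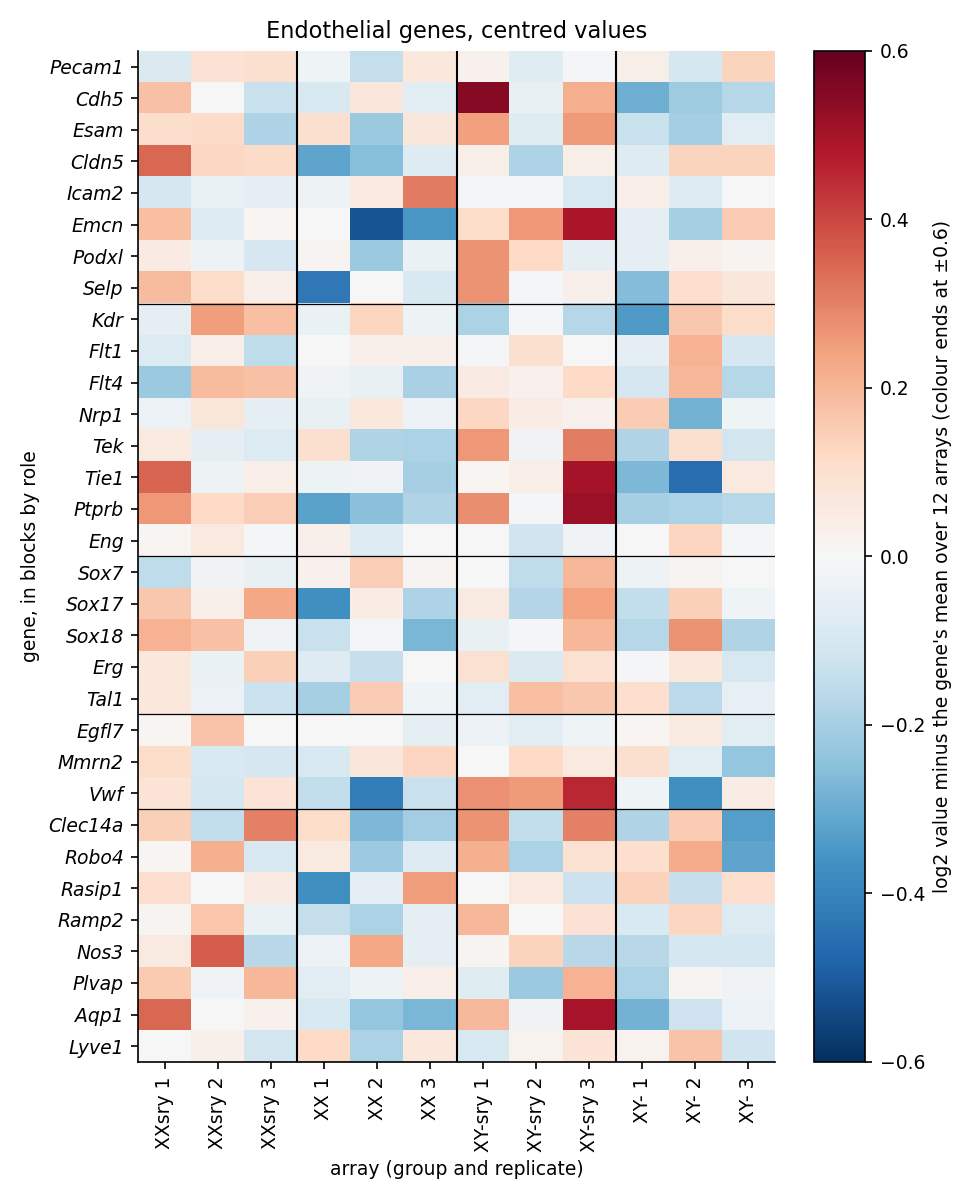
Log2 value of each endothelial gene (rows, in blocks by role) minus its mean over the 12 arrays, on each array (columns; red above the mean, blue below). XY-sry replicate 3 holds the highest value for 11 genes, and XX replicates 1 and 2 hold the lowest for 6 and 8.

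Junction and surface adhesion genes came next. Of 8, none passed in the limma fit and 3 had an unadjusted p under 0.05, where 15.9% of all probe sets did. The median difference was 0.15. Emcn, a sialomucin of capillaries and veins, read 3.48, 3.22 and 3.31 in XXsry, against 3.30, 2.78 and 2.95 in XX. It read 3.41, 3.56 and 3.79 in XY-sry, against 3.24, 3.10 and 3.45 in XY-. The difference was 0.33 ± 0.098 (limma adjusted p = 0.0916), and the groups overlapped in both complements. The Emcn mean of 3.30 lay close to 3.22, the top reading of the Y-linked genes in mice without a Y. Cdh5, which encodes VE-cadherin, differed by 0.26 ± 0.093 (limma adjusted p = 0.167) and Selp, which encodes P-selectin, by 0.21 ± 0.092 (adjusted p = 0.283). Esam and Cldn5, both of endothelial tight junctions, differed by 0.16 and 0.15. Podxl, a surface sialomucin, differed by 0.08. Pecam1 (0.01) and Icam2 (-0.10), adhesion molecules that leukocytes also carry, did not pass.

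Among 8 receptors and their partners, Ptprb was the only one called, and the median was 0.085. Tie1, the partner of the angiopoietin receptor, differed by 0.31 ± 0.107 (limma adjusted p = 0.149). Tek, the angiopoietin receptor itself, differed by 0.16 ± 0.082 (limma adjusted p = 0.378). Their means, 3.35 and 3.22, also lay close to that top reading of 3.22 in mice without a Y. None of the 3 receptors for vascular endothelial growth factors passed. Kdr, the main signalling receptor, differed by 0.00 with a 95% interval from -0.19 to 0.19. Flt1, a high-affinity receptor that also acts as a decoy, differed by -0.04, while its other 3 probe sets were at 0.39, which passed (limma adjusted p = 0.0247), 0.19 and -0.02. Flt4, the receptor that drives lymphatic growth, differed by 0.11 with a 95% interval from -0.08 to 0.30. Nrp1, a coreceptor for semaphorins and vascular growth factors that some T cells carry too, differed by 0.06. Eng, a coreceptor of the TGF-beta family, differed by -0.02 with an interval from -0.13 to 0.08.

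No transcription factor of the 5 passed in limma, and 0 had an unadjusted p under 0.05, where 15.9% of all probe sets did. Sox17, known for arterial identity, differed by 0.18, Sox18 by 0.17 and Sox7 by -0.06. Erg, an ETS factor that maintains endothelial identity, differed by 0.09, and Tal1, a factor of blood and endothelial progenitors, by 0.06. Beside Vwf, the secreted proteins Egfl7 (0.02) and Mmrn2 (0.03), both of the vessel matrix, did not pass.

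The remaining 8 genes have mixed functions, and Aqp1 alone passed, with a group median of 0.08. Clec14a, a lectin-like surface receptor, differed by 0.24 ± 0.112 (limma adjusted p = 0.308). Ramp2, which makes the adrenomedullin receptor with its partner, differed by 0.14, and Robo4, a guidance receptor that stabilises vessels, by 0.08. Plvap, which forms the diaphragms of fenestrated capillaries, differed by 0.08, as did Nos3, the endothelial nitric oxide synthase. Rasip1, which acts in lumen formation, differed by 0.03, and Lyve1, a hyaluronan receptor of lymphatic vessels and some macrophages, by -0.02. None of these 7 passed in limma, and for 27 of the 32 genes the 95% interval lay within 0.5 of zero.

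**Figure D3:**
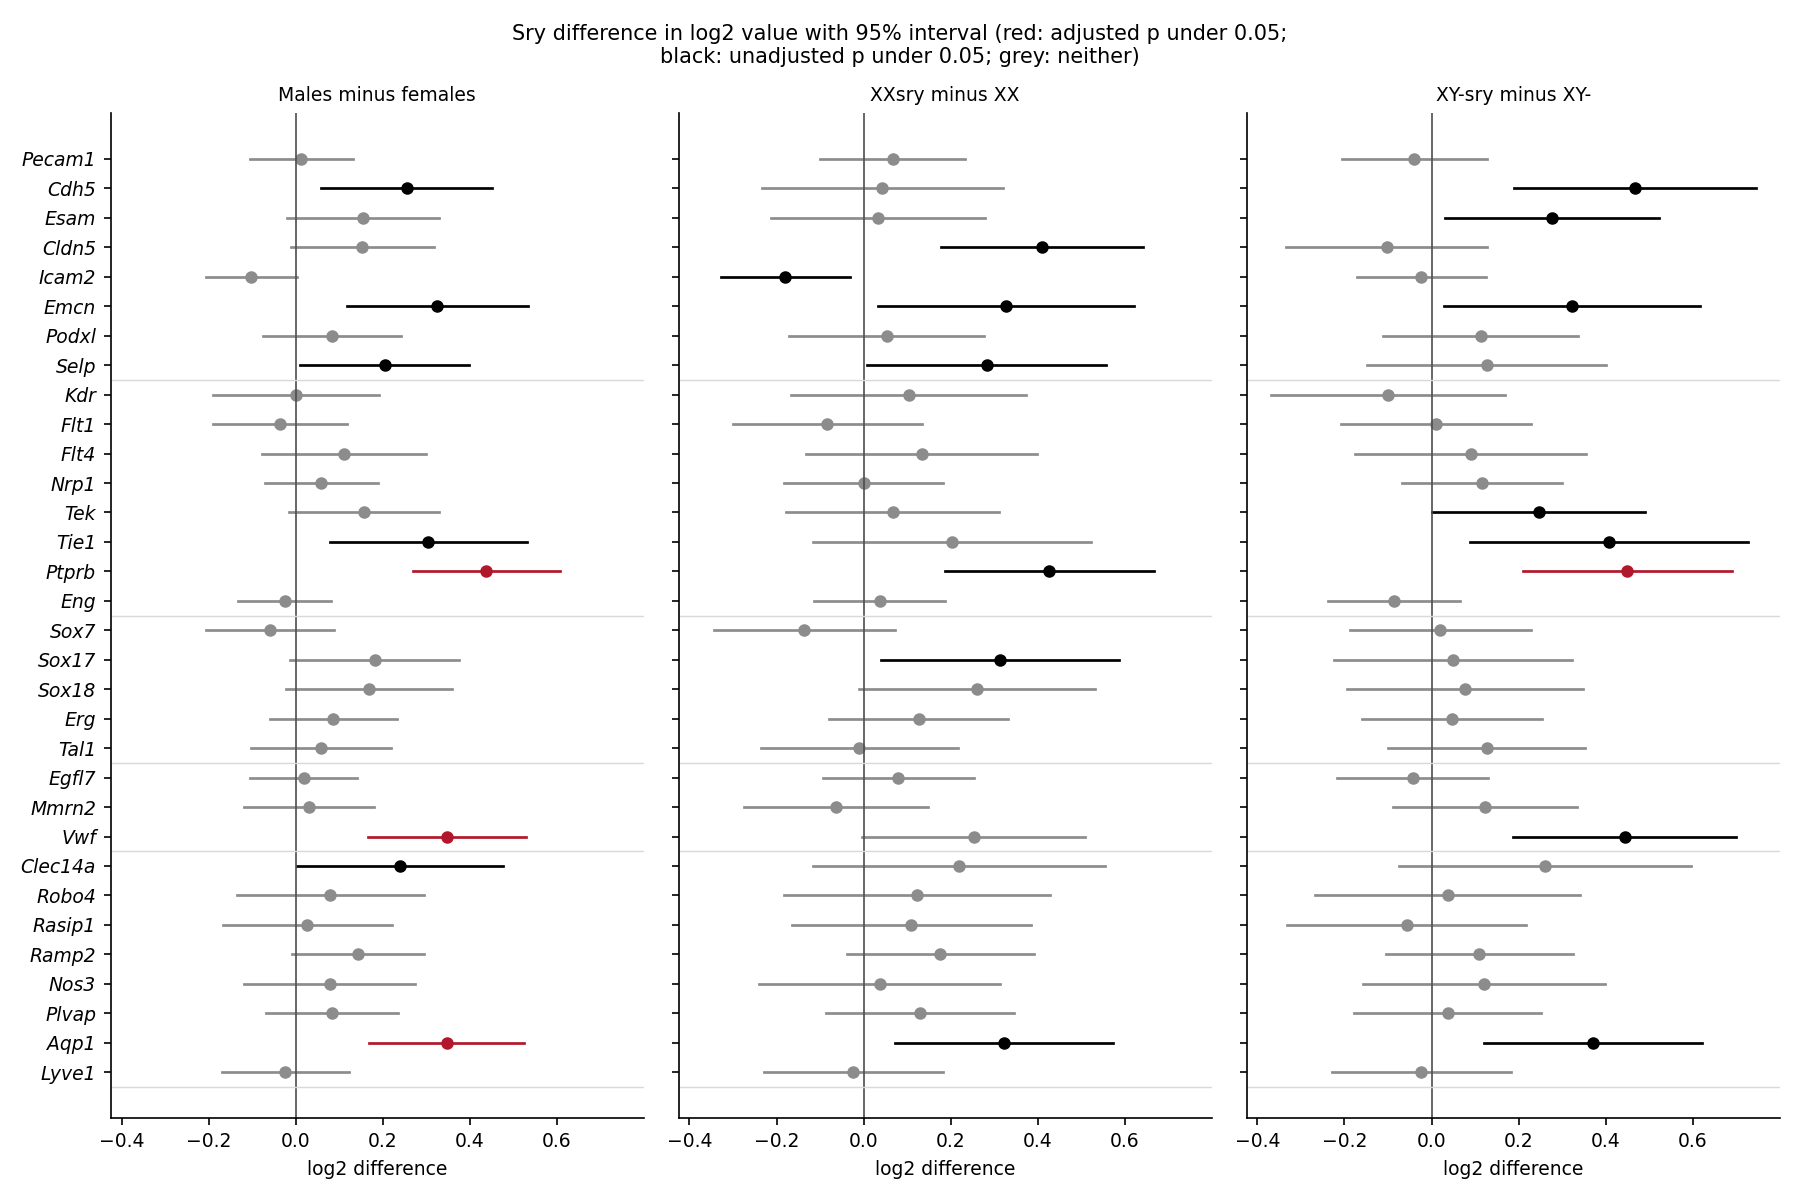
Log2 difference (horizontal axis) with its 95% interval for each endothelial gene, for males minus females, XXsry minus XX, and XY-sry minus XY-. Ptprb, Vwf and Aqp1 pass the adjusted threshold in the first panel (red) and Ptprb alone in the third, and most points lie to the right of zero in all panels.

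RefSeq promoter windows of build GRCm38.p6 were at hand for 17 of the 32 genes, and 4 are shown. Aqp1, Emcn and Tie1 were chosen because they gave the clearest sex differences among the genes matched. Of these, Aqp1 passed, while Emcn and Tie1 did not (limma adjusted p = 0.0916 and 0.149). No window was at hand for Ptprb or Vwf. Cldn5 was chosen because its sex difference was 0.41 in XX and -0.10 in XY- mice, neither of which passed. Each window has 300 bases and spans an annotated start, 5′ to 3′ on the gene's strand. Capitals mark the ETS factor motif AGGAAG or the SOX factor motif ACAAT on either strand (reverse CTTCCT for ETS factors, reverse ATTGT for SOX factors). The GATA factor motif AGATAA was searched too, with its reverse TTATCT for the other strand, and no marked motifs overlap in these 4 windows.
Aqp1 (chr6:55336049-55336348, plus strand): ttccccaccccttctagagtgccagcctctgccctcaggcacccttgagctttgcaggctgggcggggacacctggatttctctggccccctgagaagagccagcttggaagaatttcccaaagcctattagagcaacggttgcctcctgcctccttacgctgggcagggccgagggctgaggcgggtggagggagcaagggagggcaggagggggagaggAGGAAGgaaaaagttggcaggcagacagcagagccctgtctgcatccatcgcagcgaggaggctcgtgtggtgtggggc
Emcn (chr3:137340828-137341127, plus strand): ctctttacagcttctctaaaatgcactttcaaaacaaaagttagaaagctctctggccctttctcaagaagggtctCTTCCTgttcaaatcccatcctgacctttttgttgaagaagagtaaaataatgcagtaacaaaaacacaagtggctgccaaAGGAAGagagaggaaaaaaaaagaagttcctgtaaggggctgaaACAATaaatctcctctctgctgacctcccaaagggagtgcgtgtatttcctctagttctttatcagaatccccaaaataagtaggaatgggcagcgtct
Tie1 (chr4:118489800-118490099, minus strand): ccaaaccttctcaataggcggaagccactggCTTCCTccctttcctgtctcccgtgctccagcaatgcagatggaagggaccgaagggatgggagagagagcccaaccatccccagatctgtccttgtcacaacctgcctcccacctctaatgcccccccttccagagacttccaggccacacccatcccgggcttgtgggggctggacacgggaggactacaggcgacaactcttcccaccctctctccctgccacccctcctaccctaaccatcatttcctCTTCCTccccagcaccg
Cldn5 (chr16:18776597-18776896, plus strand): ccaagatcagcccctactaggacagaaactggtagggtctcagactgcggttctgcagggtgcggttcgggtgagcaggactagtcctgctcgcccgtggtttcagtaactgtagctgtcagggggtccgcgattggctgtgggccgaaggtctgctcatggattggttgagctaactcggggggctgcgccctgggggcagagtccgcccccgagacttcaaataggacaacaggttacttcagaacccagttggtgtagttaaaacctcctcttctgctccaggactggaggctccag
The Aqp1 window held 1 ETS motif, with its first base at position -29, counting the start base as 0. Emcn held 2, at -174 and -93, and 1 SOX motif at -49, while Tie1 held 2 ETS motifs, at -219 and 33. Cldn5 held none of these letters. The ETS letters occurred in 12 of 22 windows of the matched endothelial genes (54.5%) and in 35.4% of 32817 windows of all genes. The SOX letters occurred in 22.7% and 31%, and the GATA letters in 13.6% and 11.2%. The 22 windows come from 17 genes, so some genes were counted with more than 1 window. Windows at the same position were merged among those of all genes but not among these 22, so the shares were not counted alike. A match describes the letters and does not show that a factor binds there.

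In XX thymus alone, XXsry minus XX, no endothelial gene passed (limma, 3 arrays per group), where 0.417% of all probe sets were called, 0.204% higher and 0.213% lower. At an unadjusted p under 0.05, 7 genes stood out, 6 higher and 1 lower, against 8.9% of all probe sets, 4.5% higher and 4.4% lower. The smallest p values belonged to Ptprb (0.43 ± 0.113, limma adjusted p = 0.168) and Cldn5 (0.41 ± 0.109, adjusted p = 0.169), followed by Aqp1 (0.32 ± 0.118, adjusted p = 0.396). Icam2 differed by -0.18 (limma adjusted p = 0.434) and read 9.26 on XX replicate 3, the highest of all arrays. XXsry arrays lay above all XX arrays for 6 genes (Cldn5, Selp, Ptprb, Vwf, Ramp2 and Aqp1) and below them for 2 (Icam2 and Sox7), where 8.15% and 7.39% of all probe sets did so. With the XXsry and XX arrays alone in the fit, Ptprb passed.

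In XY- thymus, XY-sry minus XY-, Ptprb rose by 0.45 ± 0.113 (1.37-fold, limma adjusted p = 0.034, 3 arrays per group), and no other endothelial gene passed, where 4.02% of all probe sets were called, 1.5% higher and 2.51% lower. Vwf differed by 0.44 ± 0.121 (limma adjusted p = 0.0507), Cdh5 by 0.47 ± 0.131 (adjusted p = 0.0573) and Aqp1 by 0.37 ± 0.118 (adjusted p = 0.0974). These 4 genes were the ones whose XY-sry arrays all lay above the XY- arrays, as 10.5% of all probe sets did, and 0 genes lay the other way, as 8% did. Cdh5 read 4.26, 3.67 and 3.93 in XY-sry, against 3.42, 3.50 and 3.54 in XY-. In the XX mice it read 3.89, 3.71 and 3.58 in XXsry, against 3.62, 3.78 and 3.65 in XX, and there the groups overlapped. At an unadjusted p under 0.05, 8 genes were higher and 0 lower, against 16.7% of all probe sets, 9.21% higher and 7.48% lower.

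The Ptprb call in XY- thymus depended on which arrays were in the fit. No gene was called without XXsry replicate 3, XY- replicate 1 or 2, or XY-sry replicate 1 or 3. The call moved to Vwf without XY- replicate 3, to Ptprb and Vwf without XX replicate 2, and to Cdh5, Ptprb and Aqp1 without XY-sry replicate 2. Nor was any endothelial gene called with the actin covariate, where Ptprb was at 0.38 (limma adjusted p = 0.365). The same held with the XY-sry and XY- arrays alone in the fit, where the Ptprb adjusted p was 0.146. Of all 45037 probe sets, 1809 were called for this pair in the main fit and 236 with the actin covariate. Without XY-sry replicate 1 or 3 the number was 815 or 827. The actin difference was 0.74 to 0.83 on XY-sry arrays and 0.51 to 0.69 on XY- arrays, so in this pair it did not overlap. With the replicate number as a block, 2 genes were called, Ptprb and Vwf.

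The 2 sex comparisons were tested against each other as an interaction, the difference in XY- minus the difference in XX. No endothelial gene passed (limma), where 1% of all probe sets did, 0.142% above zero and 0.859% below. At an unadjusted p under 0.05 there were 2 genes, 1 in each direction, against 9.86% of all probe sets, 4.66% above and 5.2% below. Cldn5, the main claudin of vessel tight junctions, gave an interaction of -0.51 ± 0.154 (limma adjusted p = 0.177). It read 5.03, 4.81 and 4.80 in XXsry, against 4.37, 4.43 and 4.61 in XX. It read 4.72, 4.50 and 4.72 in XY-sry, against 4.61, 4.82 and 4.82 in XY-. Males were thus higher without overlap in XX mice, and the groups overlapped in XY- mice. Cdh5 gave 0.42 ± 0.185 (limma adjusted p = 0.461), and the interactions of Ptprb (0.02) and Aqp1 (0.05) lay near zero with 95% intervals from -0.32 to 0.36 and from -0.31 to 0.40.

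No endothelial gene passed the test between the sex chromosome complements. For XX minus XY-, averaged over sex, 0 passed (limma, 6 arrays on each side), where 0.0622% of all probe sets did, 0.0355% higher and 0.0266% lower. Emcn (-0.25 ± 0.098, limma adjusted p = 0.998) and Vwf (-0.21 ± 0.086, adjusted p = 0.998) had an unadjusted p under 0.05, both below zero, as 4.11% of all probe sets did, 2.12% higher and 1.99% lower. The median difference was -0.02, against 0.00 for all probe sets, and 8 of the 32 differences (25%) lay above zero and 24 below, where 50.2% of all probe sets lay above zero. For all 32 genes the 95% interval lay within 0.5 of zero. No gene had all arrays of one complement above all arrays of the other, as 0.0955% of all probe sets did in each direction. In the values given above, Emcn ran from 2.78 to 3.48 on XXsry and XX arrays and from 3.10 to 3.79 on XY-sry and XY- arrays. Vwf ran from 4.36 to 4.86 on XXsry and XX arrays and from 4.41 to 5.23 on XY-sry and XY- arrays, so the complements overlapped for both genes.

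Within a sex, XX minus XY- females and XXsry minus XY-sry males, again 0 of 32 genes passed (limma, 3 arrays per group), where 0.0755% of all probe sets did in females (0.0377% in each direction) and 0.151% in males (0.113% higher and 0.0377% lower). At an unadjusted p under 0.05 there was 1 gene in females, Cldn5 (-0.28 ± 0.109, adjusted p = 0.484), and 2 in males, Cldn5 (0.23 ± 0.109, adjusted p = 0.727) and Vwf (-0.31 ± 0.121, adjusted p = 0.599). The shares of all probe sets were 8.3% in females, 4.15% in each direction, and 6.86% in males, 3.78% higher and 3.08% lower. XX arrays lay above all XY- arrays for Cdh5 and Nos3, as 6.04% of all probe sets did, and below them for 0 genes, as 5.16% did. XXsry arrays lay above all XY-sry arrays for Cldn5 and Egfl7, which 6.04% of all probe sets did, and below them for Vwf, which 5.81% did.

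**Figure D4:**
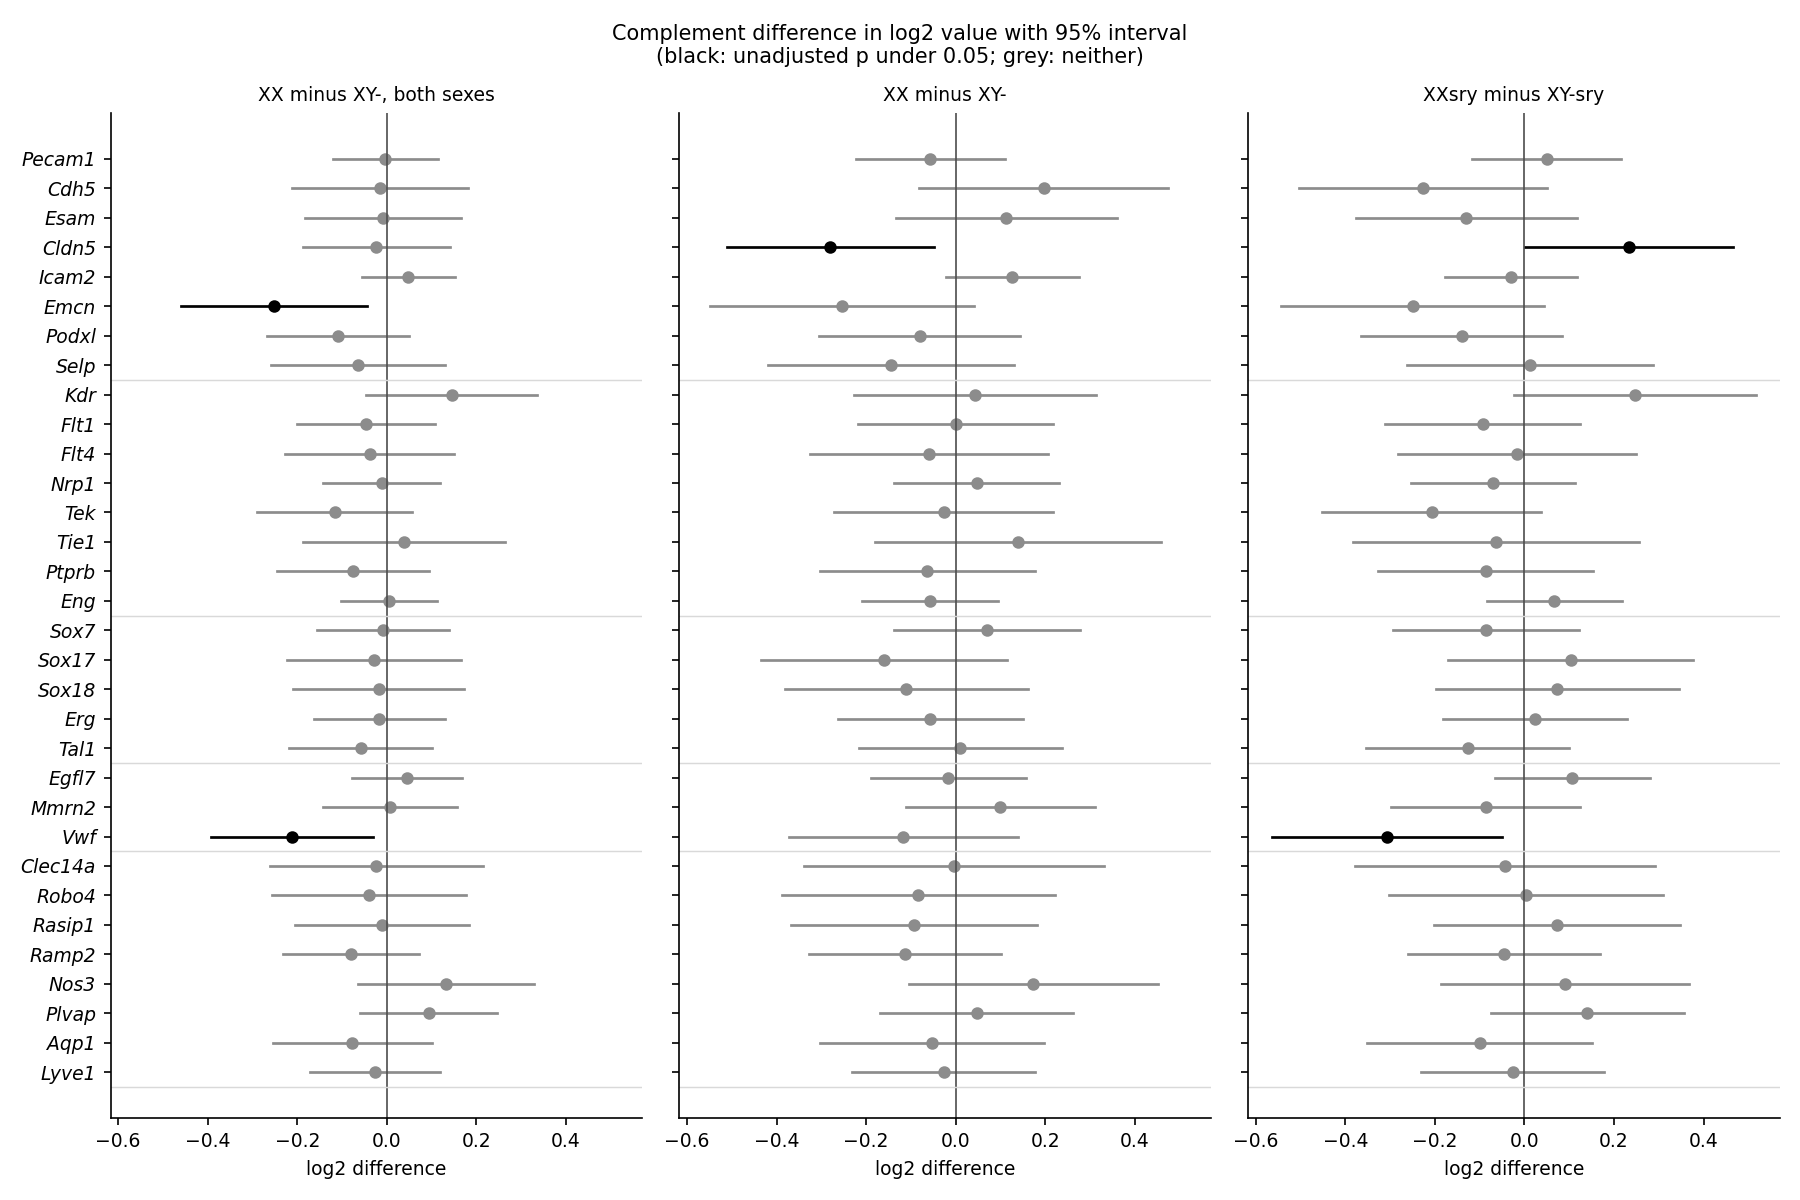
Log2 difference (horizontal axis) with its 95% interval for each endothelial gene, for XX minus XY- averaged over sex, XX minus XY- females, and XXsry minus XY-sry males. No gene passes the adjusted threshold in any panel, and Cldn5 lies below zero in females and above zero in males.

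A total of 15 of the 32 genes had more than 1 probe set of their own, and the probe sets of a gene did not always move together. Of 25 other probe sets, which the rule for choosing 1 per gene leaves out, 18 lay above zero for males minus females, as 52% of all probe sets did. In limma 2 were higher in males than in females and 0 lower, where 1.48% and 1.35% of all probe sets were called. One was for Flt1, at 0.39 ± 0.087 (limma adjusted p = 0.0247), where the Flt1 probe set with the highest mean was at -0.04. The other was for Erg, at 0.30 ± 0.069 (limma adjusted p = 0.0307), against 0.09 for the one used. Both lie under a mean of 5, at 3.30 for Flt1 and 3.49 for Erg, and they are named after their values were seen.

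Ptprb went the other way: its 2 other probe sets, with means of 3.85 and 2.37, were at -0.02 and 0.00. The mean over all 3 Ptprb probe sets differed by 0.14 and did not pass (limma adjusted p = 0.18). Mmrn2 had 0.03 in the probe set used and 0.25, 0.21 and 0.30 in the others, of which none passed. Selp had 0.21 in the probe set used and -0.015 and -0.04 in the others, with means of 3.06 and 2.14. Cdh5 was more even, with 0.26 and 0.18. With the mean over the probe sets of each gene, 4 genes were called for the sex difference: Cdh5, Erg, Vwf and Aqp1.

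**Figure D5:**
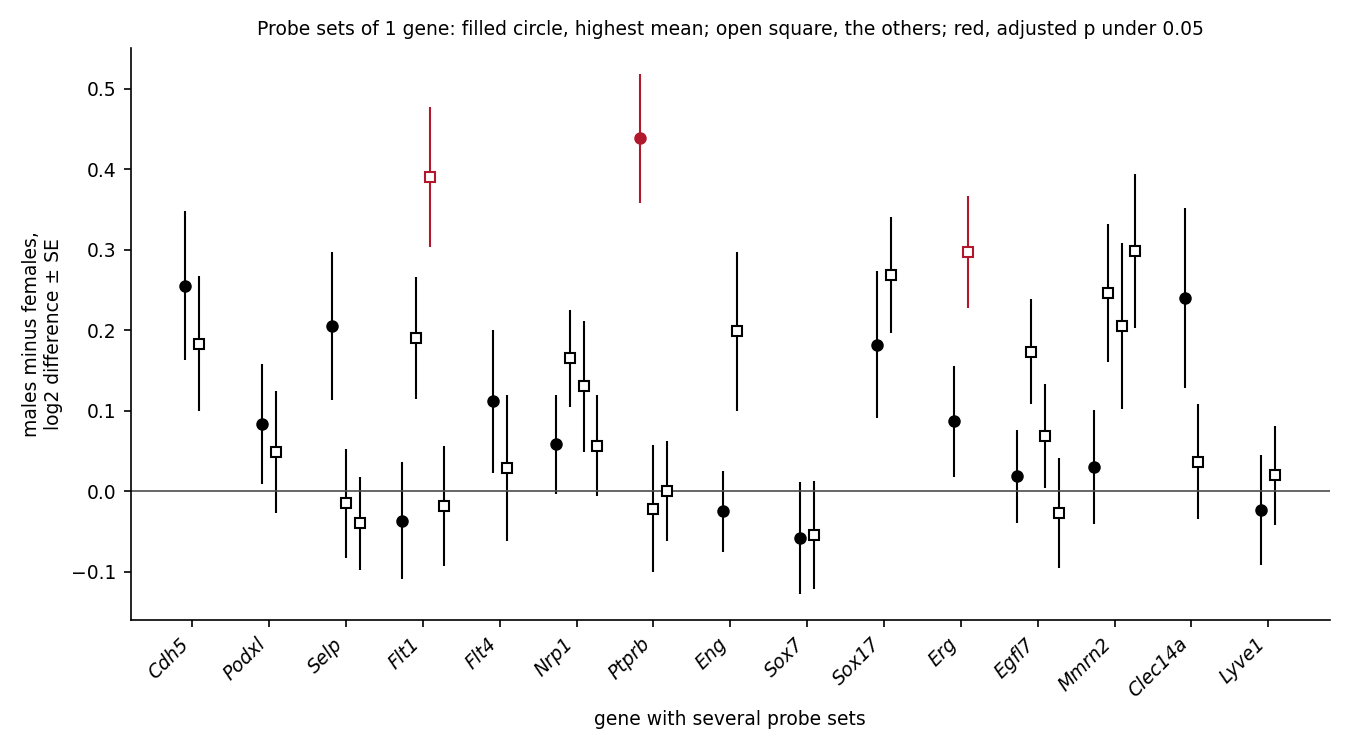
Males minus females log2 difference with its standard error (vertical axis) for each probe set of the 15 endothelial genes that have several (horizontal axis). Red marks an adjusted p under 0.05: the Ptprb probe set with the highest mean passes while its others lie near zero, and 1 other probe set each of Flt1 and Erg passes.

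The probe set that Ly6c1 shares with Ly6c2 is a different case. It read 8.83, 8.35 and 8.62 in XXsry, against 9.06, 9.39 and 9.38 in XX. It read 8.50, 8.50 and 8.47 in XY-sry, against 9.18, 9.0 and 9.31 in XY-. All male arrays lay below all female arrays, and the signal fell by 0.68 ± 0.076 on the log2 scale (limma adjusted p = 0.00013, 6 arrays on each side). Ly6c1 is made by endothelium, and both genes by lymphocytes and monocytes, so this probe set does not report on vessels alone, and it is not counted among the 32. Of macrophage markers 0 of 6 passed (limma) and 3 had an unadjusted p under 0.05, where 15.9% of all probe sets did, 7.18% lower. All 3 were lower in males (Mrc1 -0.33, Adgre1 -0.24 and Csf1r -0.20), and Cd68 was at -0.10. The list median was -0.22, with a list mean of 6.45 to 6.68 on male arrays and 6.54 to 6.94 on female arrays.

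Other vascular genes were taken from a list of 32, of which 31 were measured: ligands, Notch and ephrin partners, and vessel wall genes. For males minus females 2 rose and 1 fell in limma, with a median of 0.02, against the 1.48% and 1.35% of all probe sets. Hey1, a Notch target in arteries, rose by 0.28 ± 0.054 (limma adjusted p = 0.0101). It read 6.42, 6.48 and 6.38 in XXsry, against 6.16, 6.15 and 6.14 in XX, and 6.36, 6.16 and 6.25 in XY-sry, against 5.89, 5.99 and 6.03 in XY-. Within each complement the males lay above the females. Epas1, a hypoxia-inducible factor abundant in endothelium, rose by 0.37 ± 0.092 (limma adjusted p = 0.0405), and Vcam1, an adhesion molecule of activated vessels and thymic stroma, fell by 0.25 ± 0.062 (adjusted p = 0.0365). The ligands Vegfa (0.11), Vegfb (0.18), Pgf (0.22), Angpt1 (-0.01) and Angpt2 (-0.10) did not pass. None of the 31 passed for the complement (limma, 1 at an unadjusted p under 0.05, where 4.11% of all probe sets were).

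Mural cells, the pericytes and smooth muscle that wrap vessels, had 2 of 9 genes higher and 1 lower in males (limma), with a median of 0.02. Among all probe sets 1.48% were called higher and 1.35% lower. Of those with a mean of at least 5, where 6 of the 9 genes lie, 5.58% passed in either direction. Myh11, smooth muscle myosin, rose by 0.36 ± 0.060 (limma adjusted p = 0.0041), and Abcc9, a potassium channel subunit of pericytes, by 0.41 ± 0.079 (adjusted p = 0.0102). For both, all male arrays lay above all female arrays, as they did for 1.15% of all probe sets. Acta2, smooth muscle actin, fell by 0.27 ± 0.065 (limma adjusted p = 0.0369). The mean log2 value over the list was 5.97 to 6.17 on male arrays and 5.95 to 6.13 on female arrays.

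The other cell types gave no called gene between the sexes, where 2.83% of all probe sets were called. At an unadjusted p under 0.05, 15.9% of all probe sets passed, 8.71% higher and 7.18% lower. Thymocyte genes had 0 of 5 called (limma, 3 at an unadjusted p under 0.05; Rag1 0.00, Cd8a -0.10). Their list mean was 9.79 to 9.89 on male arrays and 9.79 to 9.92 on female arrays. Their median was -0.04, while Ptcra read 6.70 to 7.01 on male arrays and 6.37 to 6.83 on female arrays. Thymic epithelium had 0 of 5 (2 at an unadjusted p under 0.05; Krt8 0.03, Krt5 -0.01) and a list mean of 8.48 to 8.60 on male arrays, against 8.34 to 8.52 on female arrays. Its median was 0.055. Foxn1 read 6.08 to 6.48 on male arrays and 5.91 to 6.05 on female arrays, without overlap, as 1.15% of all probe sets did in that direction. Adipocyte genes had 0 of 4 measured (limma, 1 at an unadjusted p under 0.05; Retn -0.16, Adipoq -0.62), with Adipoq at 6.96 on XXsry replicate 2 and 3.68 to 6.14 elsewhere. Muscle genes had 0 of 5 (limma; Mylpf 0.08, Ckm 0.07), with a list mean of 3.87 to 4.16 on male arrays and 3.91 to 4.00 on female arrays.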

How the data were processed

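Thymus RNA of 12 samples was measured on 1-colour Affymetrix arrays, with biotin-labelled cRNA from 10 µg of total RNA per the labels' protocols. The deposited values are log2 probe set values that the authors made with RMA, per the submitters' processing notes, which name no version. No detection calls came with them.

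The table has 45101 probe sets; without its 64 controls, 45037 were tested. The gene table named 34958 with 1 gene, 932 with several and 9211 not at all. Positions come from RefSeq GRCm38.p6 by Entrez ID (32 of 32 genes). Group means were fitted to all arrays with limma 3.58.1 in R 4.3.3, with an intensity trend in the prior spread (8 residual and 8.12 prior degrees of freedom), 7 contrasts, and a two-sided adjusted p under 0.05 over all 45037 probe sets (Benjamini-Hochberg). No filter on low values was used. The fit was also run on simulated data with independent noise and no array effects, which does not bear on RNA quality or batches in these arrays. Figures were drawn with matplotlib 3.10.9. All 32 genes are named. From other lists, called genes are named, or the 2 with the highest means, with other names chosen after their values were seen. Genes, lists and alternatives were chosen with earlier results of these data known. Alternatives concerned filters, prior spread, normalization, array weights, the actin covariate, probe sets, threshold, arrays in the fit and the replicate block. The number of arrays limits the precision: the median standard error over the 32 genes was 0.081 for the averaged differences and 0.114 within a complement or sex. Replicate arrays of a group correlated at 0.9929 to 0.9975, and no arrays were identical. The series' design text calls the replicates biological.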

Additional observations from a re-analysis of the deposited data

How the results depend on the processing

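Of the 32 genes, the count called for males minus females (3) was 1 without the trend in the prior spread and 1 with the actin covariate, and ran from 1 to 3 over fits that left out 1 array. The count was 4 at an adjusted p under 0.1, and 4 with all probe sets of a gene averaged (Cdh5, Erg, Vwf and Aqp1, without Ptprb). With only means of at least 5 kept, 2 of 11 genes were called, where 1471 of 17925 probe sets were. For the same comparison, 1273 of all 45037 probe sets were called in the main fit. That number was 692 without the trend, 1168 with the actin covariate, and 621 to 2039 with 1 array left out. For XXsry minus XX (0) the count of endothelial genes called was 1 with only the groups compared. For XY-sry minus XY- (1) it was 2 with robust settings, with quantile normalization, with 1 probe set per gene, with all probe sets of a gene averaged and with the replicate number as a block. It was 3 with median centring and with array weights, 4 at an adjusted p under 0.1, and 0 with the actin covariate and with only the groups compared. It ran from 0 to 3 when 1 array was left out. Of all 45037 probe sets, 1809 were called for XY-sry minus XY- in the main fit. That number was 2043 with median centring, 2646 with array weights, 236 with the actin covariate, and 815 to 2037 with 1 array left out. The cause of these changes was not tested. For the complement and the interaction the count was 0 under every alternative listed, and no called difference changed sign. For males minus females, the Ptprb difference ran from 0.14 to 0.51 and missed the threshold in 1 of 23 alternatives, Vwf from 0.20 to 0.39 in 11 of 21, and Aqp1 from 0.28 to 0.41 in 10 of 23. For XY-sry minus XY-, the Ptprb difference ran from 0.12 to 0.59 and missed it in 9 of 24. The replicate block moved no other count of calls. Same-numbered arrays of different groups had deviations correlated at -0.037 to 0.194, so the numbers were not taken to pair the samples. Signal over background limits the 21 genes with means under 5.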
